A study of Mus musculus with 14 samples.

Results

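Trp53, 8 of its transcriptional targets and the senescence gene Cdkn2a were followed in the brains of aged mice. These 10 genes were taken by symbol (Trp53, Cdkn1a, Cdkn2a, Mdm2, Bax, Bbc3, Ccng1, Phlda3, Sesn1 and Gadd45a) from a table of 43346 genes, and all 10 had a row. RNA was sequenced from flash-frozen brain tissue containing hippocampus and cortex of 14 female mice on the C57BL/6;SJL-Tg background, all 23 months old. NTG mice (n = 4) were non-transgenic littermates, and APP/PS1 mice (n = 5) carried the APP and PS1 transgenes that produce amyloid deposits. Both of these groups drank water with vehicle (PEG), although their sample labels read non-treated. The third group (APP/PS1 + CP2, n = 5) carried the same transgenes and drank CP2, a small molecule inhibitor of mitochondrial complex I, from the age of 9 months at 25 mg/kg/day. NTG mice given CP2 were not analysed here, so that an effect of CP2 could be measured in the transgenic background only. Each library came from a separate mouse and is named here by its number, 7 to 10 in NTG, 16 to 20 in APP/PS1 and 21 to 25 in APP/PS1 + CP2 mice.

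The transcription factor p53, product of Trp53, is kept low by the ubiquitin ligase Mdm2 and accumulates after DNA damage and other stresses. It then induces genes that stop the cell cycle, trigger apoptosis or adjust metabolism, and it induces Mdm2 itself, which closes a feedback loop. Lasting activity of p53 and its target p21 (Cdkn1a), or of p16Ink4a (a product of Cdkn2a) and the RB protein, holds cells in senescence, a permanent arrest accompanied by the secretion of cytokines and proteases that has been described in glial cells of brains with amyloid. Because p53 is controlled largely through the stability of its protein, the mRNA of its targets is the usual transcript readout of its activity.

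The upstream sequence of the members was examined for the p53 half-site, the 10-base element that p53 contacts as a dimer, because most of the members were grouped as targets of 1 factor. RefSeq start sites for all 10 genes gave 15 promoter windows of 300 bases (250 before and 50 after the start, assembly GRCm38.p6, the build also known as mm10). The consensus reads the same on both strands, so 1 search covered both. A half-site was found in 7 of the 15 windows (46.7%), against 8.36% of all 32851 windows in the RefSeq table. By gene it was found in 7 of the 10 members and in 2582 of all 27025 genes. Cdkn1a held a pair of half-sites, from -73 to -64 and from -51 to -42 relative to its first start. Pairs at most 13 bases apart occurred in 24 of all windows (0.0731%). The plot of half-site positions shows where each lay. No half-site was found in the windows of Bbc3, Phlda3 and Cdkn2a, at the second start of Cdkn1a or at the first start of Sesn1. This says only that these letters are not in these windows. The search allowed no mismatch, so that sites departing from the consensus by a base were not marked. An example is the 10-base stretch directly after the second Cdkn1a half-site, which departs from the consensus only at its first base. The sequences that carry the half-sites are given 5′ to 3′ on the strand of the gene, with the half-site in capitals. The first is the stretch before the first start of Cdkn1a with both half-sites (chr17:29090829-29090978, plus strand).
Cdkn1a: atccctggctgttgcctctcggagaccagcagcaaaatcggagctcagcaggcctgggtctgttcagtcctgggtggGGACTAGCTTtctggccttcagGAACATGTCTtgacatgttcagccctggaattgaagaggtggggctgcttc
For the other 6 genes 40 bases around the half-site are shown, namely Trp53 (chr11:69580269-69580308, plus strand), Mdm2 (chr10:117710920-117710959, minus strand), Bax (chr7:45467075-45467114, minus strand), Ccng1 (chr11:40755447-40755486, minus strand), the second start of Sesn1 (chr10:41887251-41887290, plus strand) and Gadd45a (chr6:67037423-67037462, minus strand).
Trp53: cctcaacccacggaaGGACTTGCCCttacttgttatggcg
Mdm2: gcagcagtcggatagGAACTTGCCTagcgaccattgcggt
Bax: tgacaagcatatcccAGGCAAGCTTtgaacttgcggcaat
Ccng1: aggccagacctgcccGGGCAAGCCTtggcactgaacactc
Sesn1, second start: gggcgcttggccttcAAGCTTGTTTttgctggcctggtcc
Gadd45a: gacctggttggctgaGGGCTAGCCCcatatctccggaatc
Cdkn2a has a pair of separate starts, from which the mRNAs of p19Arf and p16Ink4a are made, and the count table merges both in 1 row. The 80 bases before each start (chr4:89294620-89294699 and chr4:89282193-89282272, minus strand) are shown because neither window held a half-site.
Cdkn2a, first start: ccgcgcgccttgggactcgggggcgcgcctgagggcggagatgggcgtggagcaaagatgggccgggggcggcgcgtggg
Cdkn2a, second start: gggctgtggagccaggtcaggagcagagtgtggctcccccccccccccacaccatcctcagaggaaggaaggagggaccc

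**Figure D1:**
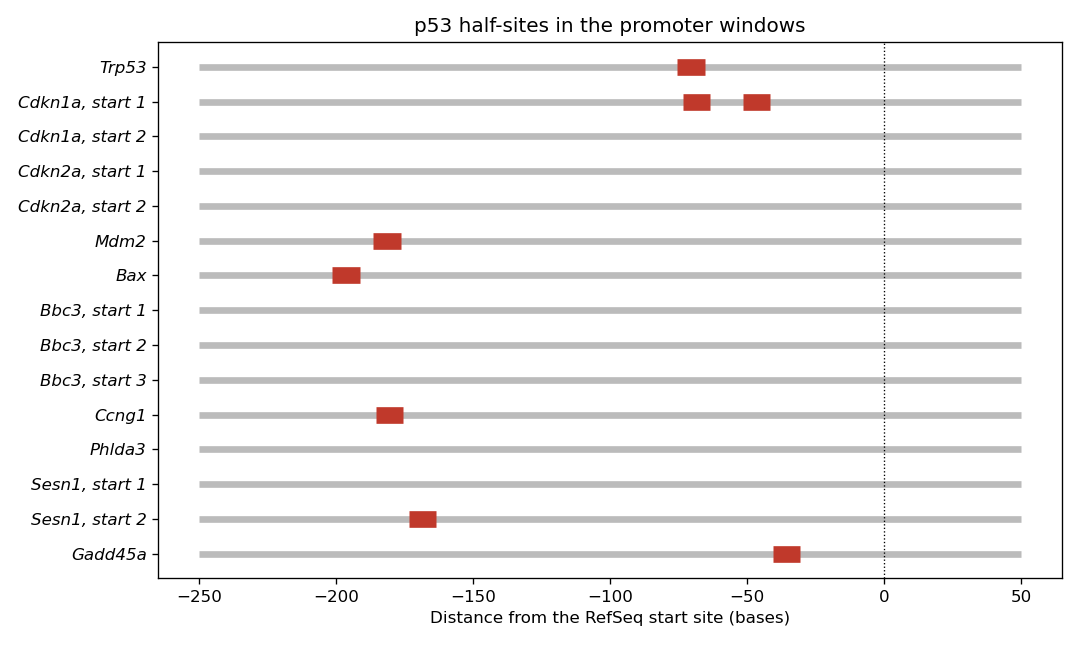
Positions of p53 half-sites (red) in the 15 promoter windows of the 10 genes (grey), as distance in bases from the RefSeq start site (0). Cdkn1a holds 2 half-sites within 100 bases of its first start, 6 other genes hold 1 each, and the windows of Cdkn2a, Bbc3 and Phlda3 hold none.

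Sequencing was deep in every mouse, with 70548781 to 106235625 counts on genes. Counts were scaled by library size (CPM), with TMM factors of edgeR between 0.953 and 1.03, and 3 counts corresponded to at most 0.0448 CPM. Neuron markers were high in all mice, with a summed level of 8098 to 9428 CPM over 12 genes, and markers of the dentate gyrus of the hippocampus were present in all (146 to 298 CPM over 10 genes). Mouse 16 stood apart, with 2774 CPM over 10 striatum markers against 245 to 455 CPM in the other 13 mice. Mouse 16 also had the lowest sum over 10 thalamus markers (215 CPM, against 450 to 800 CPM in the other 13 mice). Its sum over dentate gyrus markers (146 CPM) was the lowest as well. Mice 16 and 17 had the smallest share of counts on the ribosomal RNA-like genes Yam1 and AY036118 (2.40% and 2.68%), against 4.01 to 7.50% in the other 12. Fewer cells of a type and less RNA per cell cannot be told apart in bulk tissue, which holds for every difference given here.

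The members spanned about 2 orders of magnitude in length-corrected level. By the RPKM values deposited by the authors, averaged over 14 mice, the order was Bax at 23.3, Ccng1 at 20.6, Phlda3 at 15.7, Sesn1 at 13.8, Mdm2 at 6.01, Cdkn1a at 3.34, Trp53 at 3.27, Gadd45a at 2.71, Bbc3 at 2.36 and Cdkn2a at 0.244 RPKM. Neighbours in this order were not always separable. Cdkn1a was above Trp53 in 5 of 14 mice only, and Phlda3 above Sesn1 in 9, whereas Ccng1 exceeded Phlda3, Sesn1 exceeded Mdm2, Mdm2 exceeded Cdkn1a and Bbc3 exceeded Cdkn2a in all 14. Cdkn2a was detected in every mouse with 11 to 55 counts.

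**Figure D2:**
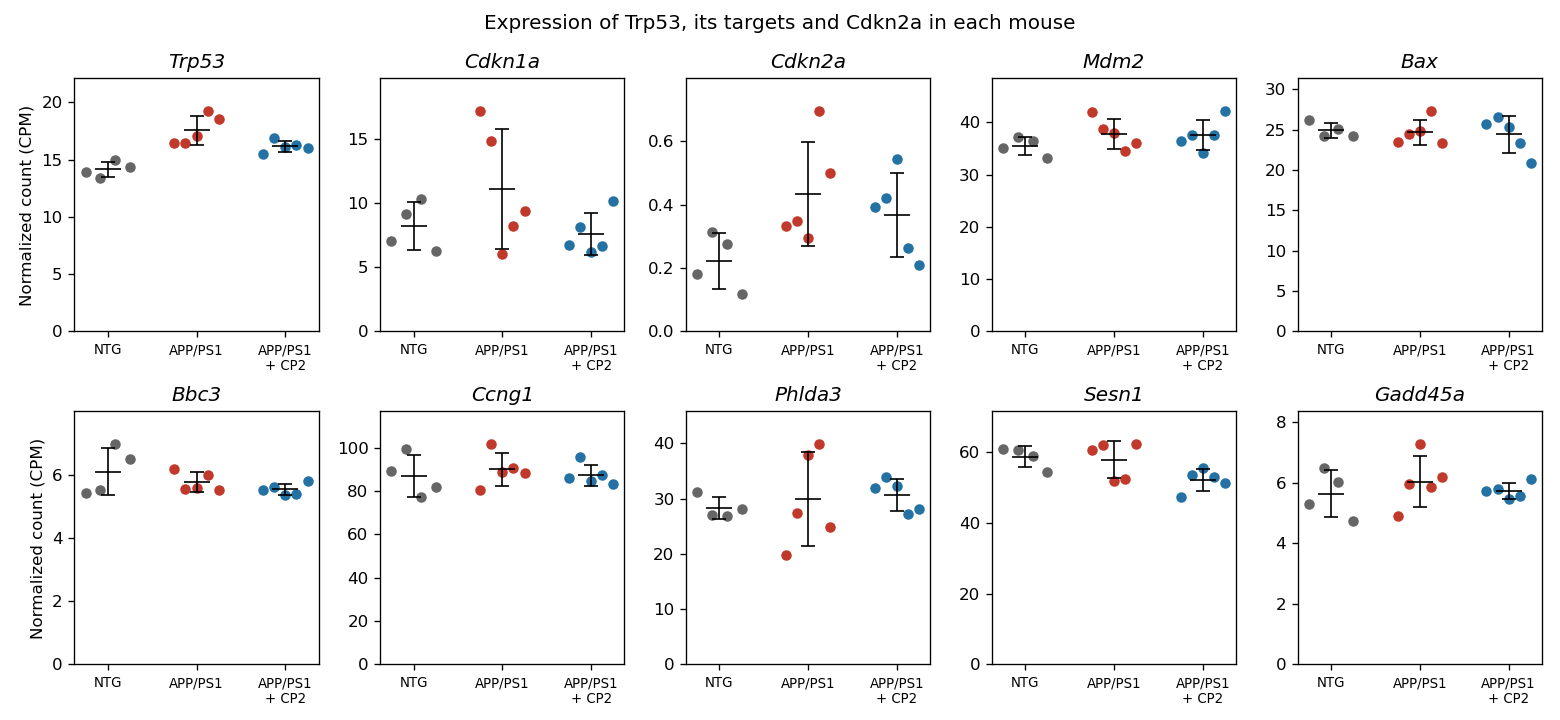
Normalized count (CPM, linear axes from 0) of each of the 10 genes in each mouse, with the group mean and SD as bars, for NTG (n = 4), APP/PS1 (n = 5) and APP/PS1 + CP2 (n = 5). Trp53 in all 10 transgenic mice lies above all 4 NTG mice, and Cdkn1a is high in 2 APP/PS1 mice only.

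The comparison of APP/PS1 with NTG mice addressed what the transgenes change. Trp53 mRNA rose 1.24-fold (95% interval 1.12 to 1.38), and it was the only member that passed the test. None of its targets among the members passed. Of 36 other p53 targets tested 2 were called higher (5.56%, against 4.34% of all genes). Cdkn1a had a larger fold change than Trp53 but was high in only 2 of 5 APP/PS1 mice, and Cdkn2a had overlapping groups at very low counts. Of the 10 members, 9 passed the filter on low counts (above 1 CPM in every mouse of at least 1 group), and 1 of these 9 (11.1%) reached an adjusted p under 0.05 in edgeR's quasi-likelihood test, against 5.68% of the 16417 genes tested (4.34% higher and 1.34% lower). Unadjusted, 1 of 9 members and 18.7% of all genes had a p under 0.05. The log2 fold change was above 0 for 6 of the 9 members and for 48.8% of all genes. The 9 tested members had a median log2 fold change of 0.08, and all tested genes one of -0.0042.

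Trp53 (chr11:69580359-69591873) stood at 13.9, 13.4, 14.9 and 14.3 CPM in NTG mice 7 to 10. In APP/PS1 mice 16 to 20 it stood at 16.4, 16.5, 17.1, 19.2 and 18.5 CPM. Every APP/PS1 mouse was above every NTG mouse, which was the case for 9.97% of all genes tested in either direction. The log2 fold change was 0.31 (SE 0.07, edgeR adjusted p = 0.0244, n = 5 and 4). Mice 19 and 20, with the highest Trp53, also had the highest sums over 14 microglia markers (1500 and 1441 CPM, against 989 to 1153 in the other 3 APP/PS1 mice and 496 to 517 in NTG), and the part of these cells in the Trp53 difference was not tested. The call was lost when NTG mouse 7 (edgeR adjusted p = 0.0626), NTG mouse 8 (0.0752), APP/PS1 mouse 19 (0.0531) or APP/PS1 mouse 20 (0.0624) was left out, while the log2 fold change stayed between 0.28 and 0.34. Trp53 lies 104 bases from Wrap53, which is on the opposite strand and runs away from it, with no shared bases in the annotation of the counts.

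Mdm2, the ligase that degrades p53, had means of 35.5 ± 1.7 CPM (SD, n = 4) in NTG and 37.8 ± 2.9 CPM (SD, n = 5) in APP/PS1 mice, with a log2 fold change of 0.09 (95% interval -0.05 to 0.23). Ccng1, cyclin G1, a p53 target that acts on Mdm2 through a phosphatase, had means of 86.9 ± 9.6 CPM (SD, n = 4) and 89.9 ± 7.6 CPM (SD, n = 5). Both genes of the feedback on p53 therefore overlapped between the groups and did not pass.

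Cdkn1a (chr17:29090979-29100722) encodes p21, the cyclin-dependent kinase inhibitor that arrests the cycle downstream of p53. It stood at 7.06, 9.13, 10.3 and 6.25 CPM in NTG mice 7 to 10 and at 17.2, 14.9, 6.07, 8.23 and 9.37 CPM in APP/PS1 mice 16 to 20. Mice 16 and 17 were the highest of all 14, whereas the other 3 APP/PS1 mice lay within or below the NTG range. The log2 fold change of 0.44 (SE 0.30, 95% interval -0.21 to 1.10, edgeR adjusted p = 0.481) did not exceed this spread. Mice 16 and 17 are also those with the smallest ribosomal RNA-like share. With the log2 of that share in the fit the log2 fold change was 0.00031 (SE 0.34). The share was 4.72 to 7.50% in NTG and 2.40 to 5.51% in APP/PS1 mice, so that this fit cannot fully separate it from genotype. Without mouse 16, which is rich in striatum transcripts, the log2 fold change was 0.23, the lowest value with 1 mouse left out. The highest such value was 0.60. The smallest unadjusted edgeR p among these fits was 0.0424, and every adjusted p was at least 0.269. What raised Cdkn1a in mice 16 and 17 was not tested.

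**Figure D3:**
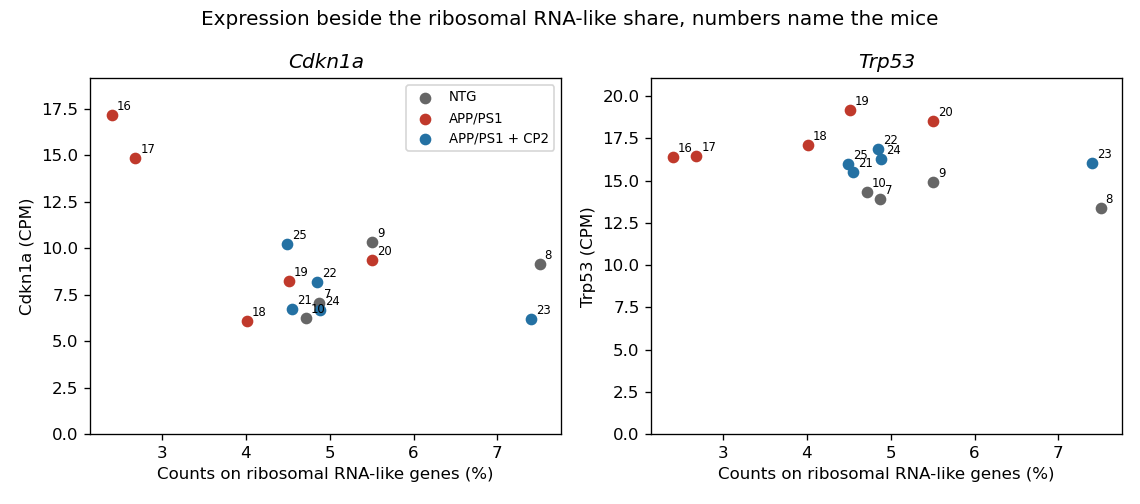
CPM of Cdkn1a (left) and Trp53 (right) in each mouse against the percentage of counts on Yam1 and AY036118, with mouse numbers and colours for the 3 groups. Mice 16 and 17 combine the 2 smallest shares (2.40% and 2.68%) with the 2 highest Cdkn1a values, while for Trp53 mice 19 and 20 are highest.

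Gadd45a, a growth arrest gene induced by DNA damage, ranged from 4.73 to 6.49 CPM in NTG and from 4.90 to 7.27 CPM in APP/PS1 mice (log2 fold change 0.10, SE 0.13). Its span shares 859 bases with E230016M11Rik on the opposite strand (343 to 574 counts per mouse), and the library kit does not mark strand, so that reads from the shared stretch cannot be assigned. Cdkn2a was below the filter in all groups and was compared by an exact permutation test of single values. It stood at 0.18, 0.31, 0.28 and 0.12 CPM in NTG mice 7 to 10 and at 0.33, 0.35, 0.29, 0.69 and 0.50 CPM in APP/PS1 mice 16 to 20. All APP/PS1 mice but 18 were above all NTG mice. The difference of mean log2 CPM was 0.91 (2-sided exact permutation test over 126 groupings, p = 0.0238), and adjusted over the 3 comparisons of this gene p was 0.0714. Leaving out single mice moved the exact p between 0.0179 and 0.107, above 0.05 without NTG mouse 7 or 10 or APP/PS1 mouse 16, 17, 19 or 20. In edgeR without a filter, Cdkn2a had a log2 fold change of 0.96 and an adjusted p of 0.256.

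Neither apoptosis gene passed. Bax, which opens the outer mitochondrial membrane, ranged from 24.2 to 26.1 CPM in NTG and from 23.4 to 27.3 CPM in APP/PS1 mice, with a log2 fold change of -0.01 (95% interval -0.14 to 0.11). Bbc3, which encodes the BH3-only protein PUMA, had means of 6.10 ± 0.75 CPM (SD, n = 4) and 5.76 ± 0.30 CPM (SD, n = 5), a log2 fold change of -0.08 (95% interval -0.30 to 0.13).

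Phlda3, a p53 target that competes with Akt for membrane lipids, varied widely within APP/PS1 mice, with a coefficient of variation of 28.7%, against 42.0% for Cdkn1a and 38.1% for Cdkn2a. It stood at 31.1, 27.0, 26.9 and 28.1 CPM in NTG mice 7 to 10 and at 19.8, 27.3, 37.8, 39.8 and 24.9 CPM in APP/PS1 mice 16 to 20. Mouse 16 was the lowest and mice 18 and 19 the highest of all 14, so that the group held both extremes, and the log2 fold change of 0.08 did not exceed this spread (SE 0.19, 95% interval -0.33 to 0.50, edgeR adjusted p = 0.861). The mice high in Phlda3 were not those high in Cdkn1a. Sesn1, sestrin 1, which restrains mTORC1 and activates AMPK, had means of 58.7 ± 3.0 CPM (SD, n = 4) and 57.9 ± 5.2 CPM (SD, n = 5), a log2 fold change of -0.02.

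**Figure D4:**
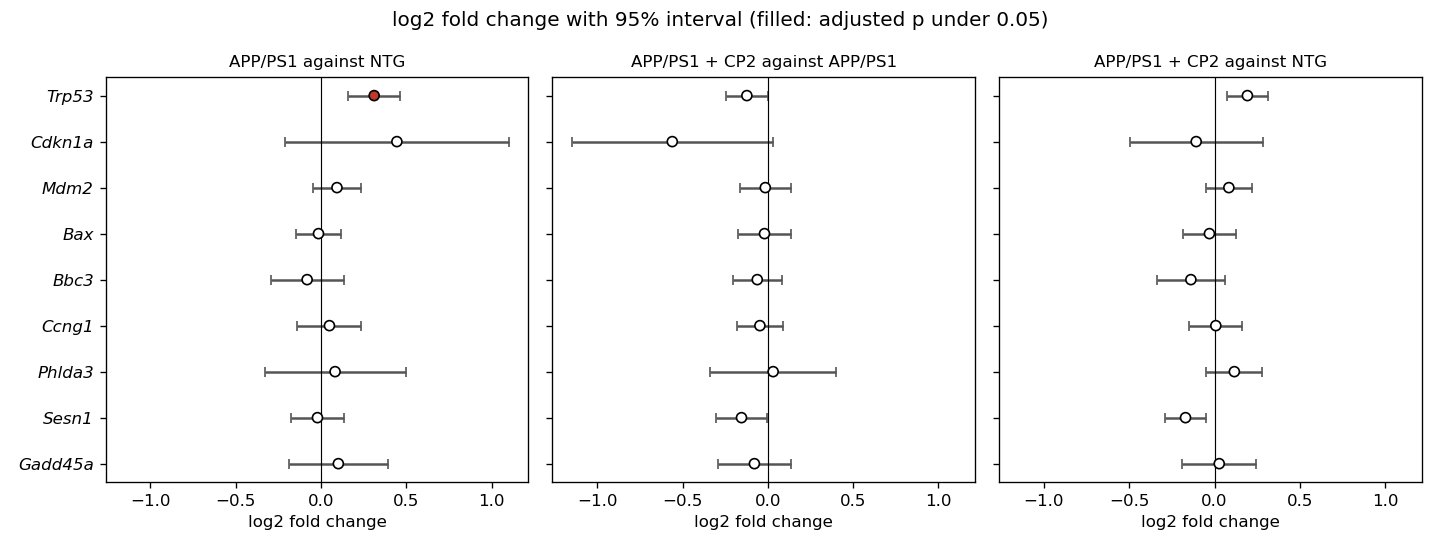
log2 fold changes of the 9 tested genes with 95% intervals from edgeR in the 3 comparisons. Only Trp53 in APP/PS1 against NTG mice (0.31, filled) passes an adjusted p of 0.05, and the intervals of Cdkn1a are the widest.

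Around the members, lists of related genes moved in different measure. Of 36 other p53 targets tested (40 listed), 2 rose and 0 fell. These were Fas, the death receptor, with 1.22 to 1.86 CPM in NTG and 2.213 to 3.78 CPM in APP/PS1 mice and a log2 fold change of 0.94 (edgeR adjusted p = 0.0151), and the lipase gene Abhd4 with one of 0.36 (edgeR adjusted p = 0.0242). That is 5.56% of the list against 4.34% of all genes called higher, with a median log2 fold change of 0.06. Among 20 regulators of p53, 0 passed in edgeR, DESeq2 and limma-voom (2 at an unadjusted p under 0.05), the smallest p being those of Chek2 (log2 fold change 0.57, SE 0.20) and Hipk2 (-0.19, SE 0.07). Among the 15 paralogs of members tested 0 passed in edgeR (1 at an unadjusted p under 0.05, and 1 in DESeq2), from Bok at -0.23 to Cdkn2c at 0.16 on the log2 scale. The paralogs were Trp63, Trp73, Cdkn1b, Cdkn1c, Cdkn2c, Cdkn2d, Mdm4, Bak1, Bok, Ccng2, Phlda1, Sesn2, Sesn3, Gadd45b and Gadd45g, while Cdkn2b and Phlda2 were below the filter. Cdkn1b, which encodes the inhibitor p27, came nearest with a log2 fold change of -0.22 (edgeR adjusted p = 0.0622).

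Of the genes of cell cycle control, Ccnd1, cyclin D1, rose with a log2 fold change of 0.46 (SE 0.11, edgeR adjusted p = 0.0367) as 1 of 17 tested CDK inhibitors and RB pathway genes. That is 5.88% of the list, near the 4.34% of all genes called higher. Of 13 BCL2 family genes 2 rose (15.4%, and 4 genes in DESeq2) and 1 fell (7.69%, against 1.34% of all genes called lower). The risers were Mcl1 (log2 fold change 0.29) and Bcl2a1b (1.99), both survival genes, the latter with near-identical copies whose reads may be split, and Bcl2l2, another survival gene, fell by 0.24 on the log2 scale. Of 15 proliferation genes only Top2a rose (log2 fold change 1.25, edgeR adjusted p = 0.00984), against 3 called higher in DESeq2 and 2 without mouse 16. In edgeR that is 6.67% of the list, against 4.34% of all genes.

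Of 48 senescence-associated secretory genes listed, 30 were tested, 12 rose (40% of those tested, against 4.34% of all genes, and 17 genes without mouse 16) and 1 fell, with a median log2 fold change of 0.36. The chemokine Ccl4 had 0.149 to 0.318 CPM in NTG and 1.44 to 2.59 CPM in APP/PS1 mice, a 7.68-fold rise. Plaur, the urokinase receptor, rose with a log2 fold change of 1.81 and its ligand Plau with one of 1.13. The risers also included Ccl3, Cxcl10, Tgfb1, Icam1, Il1a, Csf1, Igfbp7 and Lcp1, and Vegfa fell by 0.52 on the log2 scale. The 18 untested genes, Il6, Il1b, Tnf, Ccl2 and Mmp3 among them, did not exceed 1 CPM in every mouse of either group. Several risers are also products of activated microglia, and 13 of the 14 microglia markers rose in the same mice. The 14 markers had a median log2 fold change of 1.26 and ranged from 0.31 to 2.46, with Trem2 the highest. The part of microglia in the rise of the secretory genes was not tested. Of 14 structural senescence markers (lamins, HMG proteins, histone variants and lysosomal hydrolases) 0 passed in edgeR (4 at an unadjusted p under 0.05), 2 passed in DESeq2 or without mouse 16 and 3 in limma-voom. The smallest p were those of Hmgb2 (log2 fold change 0.47, SE 0.15, edgeR adjusted p = 0.118) and Glb1, senescence-associated beta-galactosidase (0.28, SE 0.09, edgeR adjusted p = 0.120). Hmgb2 encodes a chromatin protein lost from senescent cells, so that the counts of this list have no single direction in senescence.

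**Figure D5:**
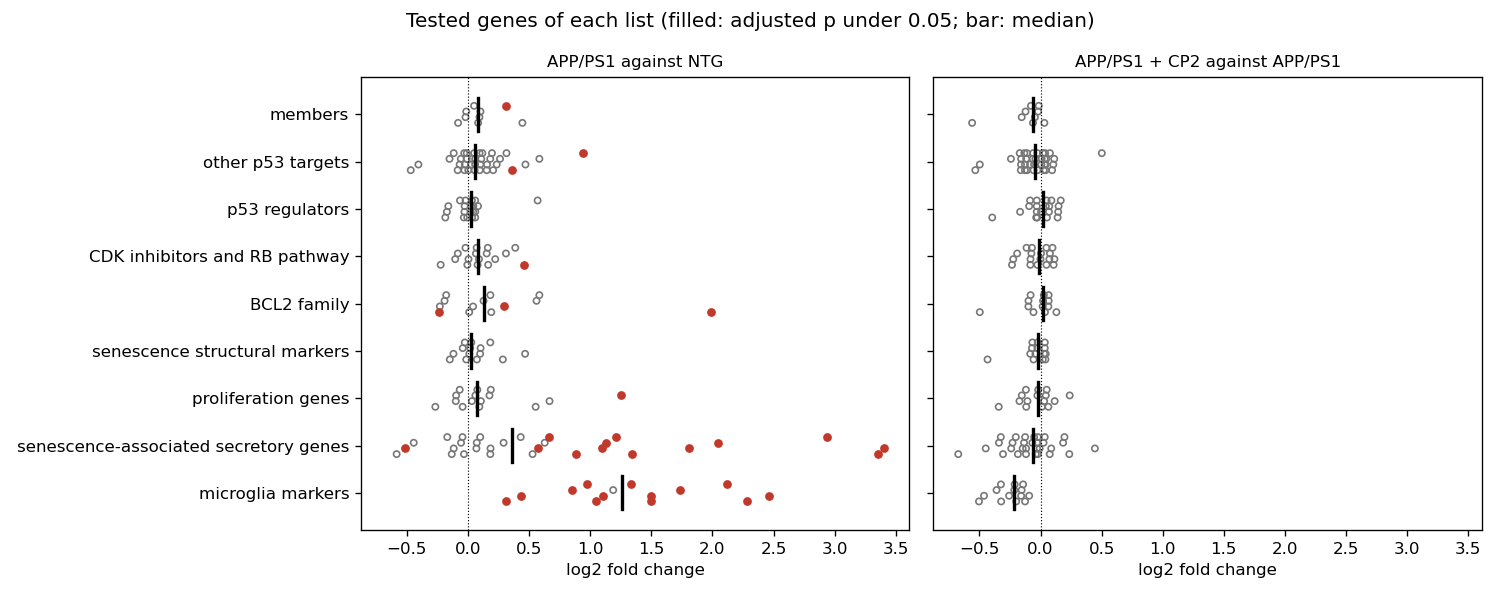
log2 fold change of every tested gene of 9 lists, with genes at an edgeR adjusted p under 0.05 filled and the list median as a bar, for APP/PS1 against NTG (left) and APP/PS1 + CP2 against APP/PS1 mice (right). Secretory and microglia genes spread to the right on the left panel (12 and 13 called higher), the medians of the 3 p53 lists lie between 0.02 and 0.08, and no gene of any list is filled on the right panel.

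The comparison of APP/PS1 + CP2 with APP/PS1 mice addressed the effect of the drug in transgenic mice. No member passed the test. Trp53 was 0.919-fold and Sesn1 0.899-fold of the level without drug, with 95% intervals that ended just below 1, and Cdkn1a was 0.678-fold with an interval that included 1. In edgeR 0 of 9 tested members had an adjusted p under 0.05 (0 in DESeq2 and limma-voom too), and 1 of all 16407 genes did (0.00609%, a gene that was lower). At an unadjusted p under 0.05 there were 2 of 9 members and 6.55% of all genes. The groups did not overlap for 0 of 9 members and 1.18% of all genes. The median log2 fold change of the members was -0.06, with 1 of 9 above 0, against 47.5% of all genes.

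Trp53 in APP/PS1 + CP2 mice 21 to 25 stood at 15.5, 16.9, 16.1, 16.3 and 16.01 CPM, overlapping the 16.4 to 19.2 CPM of APP/PS1 mice through mouse 22 alone. The log2 fold change was -0.12 (SE 0.06, edgeR adjusted p = 0.744). The spread within the group was also smaller, with a coefficient of variation of 3.08% against 7.16%, which is given as a description. Sums over microglia markers were 855 to 1264 CPM in the treated mice, all 14 markers had a log2 fold change below 0 (median -0.21) and 0 of them passed (1 at an unadjusted p under 0.05). Their part in the Trp53 values was not tested.

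Sesn1 (chr10:41810574-41908424) stood at 60.8, 62.0, 51.7, 52.6 and 62.2 CPM in APP/PS1 mice 16 to 20. In APP/PS1 + CP2 mice 21 to 25 it stood at 47.5, 53.7, 55.4, 52.9 and 51.3 CPM. Mice 18 and 19 lay among the treated mice and the other 3 above all of them. The log2 fold change was -0.15 (SE 0.07, edgeR adjusted p = 0.744).

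Cdkn1a stood at 6.74, 8.17, 6.19, 6.66 and 10.2 CPM in mice 21 to 25. These values lay within the range of NTG mice apart from mouse 23, and within that of APP/PS1 mice 18 to 20 apart from mouse 25, and only mice 16 and 17 stood clear above them. The log2 fold change was -0.56 (SE 0.27, 95% interval -1.15 to 0.03, edgeR adjusted p = 0.744). It was -0.09 with the ribosomal RNA-like share in the fit, -0.35 without mouse 16 and -0.72 without mouse 18. The share was 2.40 to 5.51% in APP/PS1 and 4.49 to 7.40% in APP/PS1 + CP2 mice, so that it was not fully separable from treatment. Cdkn2a stood at 0.39, 0.42, 0.54, 0.26 and 0.21 CPM in mice 21 to 25, overlapping both other groups (difference of mean log2 CPM -0.23, 2-sided exact permutation test over 252 groupings, p = 0.476).

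None of the remaining members passed. Mdm2, Bax and Ccng1 had log2 fold changes of -0.01, -0.02 and -0.05, and the 95% intervals of their folds lay within 0.882 and 1.10. Bbc3 and Gadd45a, at -0.06 and -0.08, had fold intervals within 0.818 and 1.10. Phlda3, at 0.03, ranged from 27.2 to 33.8 CPM in treated mice, which did not extend to either extreme of the untreated group (fold interval 0.792 to 1.32).

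In the related lists 0 genes passed in this comparison in edgeR, DESeq2 and limma-voom, and 0 passed in edgeR without mouse 16. Fas (log2 fold change -0.53, SE 0.15) and Pmaip1, the BH3-only gene also known as Noxa (-0.50, SE 0.20), had the smallest p among 36 other p53 targets, of which 3 had an unadjusted p under 0.05. In treated mice Fas ranged from 1.78 to 2.39 CPM, overlapping the untreated group. Among 14 structural senescence markers Hmgb2, a chromatin protein lost from senescent cells, had the smallest p (log2 fold change -0.43, SE 0.12, edgeR adjusted p = 0.744), with 1 of the list at an unadjusted p under 0.05. Among 30 secretory genes the median was -0.06, and Cxcl12 (0.44, SE 0.19) was among the genes of smallest p, in a list with 3 genes at an unadjusted p under 0.05. The other lists gave Pcna (-0.15) for proliferation, Rbl2 (-0.11) and Cdk4 (-0.08) for the RB pathway, Bcl2l1 (-0.10) for the BCL2 family, and Atm (0.15) and Hipk2 (0.14) for the regulators of p53, with adjusted p of at least 0.744. The 15 paralogs lay between -0.22 (Cdkn2c) and 0.17 (Trp63).

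The comparison of APP/PS1 + CP2 with NTG mice showed where treated transgenic mice stood relative to controls. It shares its mice with the first 2 comparisons. Trp53 was 1.14-fold of the NTG level (95% interval 1.05 to 1.24) and Sesn1 0.889-fold (95% interval 0.819 to 0.964), and neither passed after adjustment in edgeR. Of 9 tested members 0 had an adjusted p under 0.05 (2 at an unadjusted p under 0.05), against 6.02% of 16416 genes (4.56% higher and 1.46% lower) and, unadjusted, 20.2%. DESeq2 called 2 members, Trp53 and Sesn1. The median log2 fold change of the members was 0.0075, and 5 of 9 values were above 0, against 49.4% of all genes.

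Trp53 was higher in each treated mouse (15.5 to 16.9 CPM) than in each NTG mouse (13.4 to 14.9 CPM), a separation seen for 9.73% of all tested genes. Its log2 fold change was 0.19 (SE 0.05), with an adjusted p of 0.0642 in edgeR and 0.0162 in DESeq2. Set beside 0.31 for untreated APP/PS1 mice, the value was smaller, but the 2 share the NTG mice, and the direct comparison of the transgenic groups did not pass. Sesn1 was lower in 4 of 5 treated mice than in all 4 NTG mice, mouse 23 (55.4 CPM) lying above NTG mouse 10 (54.4 CPM). Its log2 fold change was -0.17 (SE 0.05), with an adjusted p of 0.0976 in edgeR and 0.0345 in DESeq2. Cdkn1a (-0.11, 95% interval -0.50 to 0.28), Gadd45a (0.03), Mdm2 (0.08), Bax (-0.03), Bbc3 (-0.14), Ccng1 (0.0075) and Phlda3 (0.12) had adjusted p of 0.424 to 0.974 in edgeR. Cdkn2a had a difference of mean log2 CPM of 0.68 (2-sided exact permutation test over 126 groupings, p = 0.119, adjusted over its 3 comparisons 0.179).

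Of 28 secretory genes tested 12 were called higher (42.9%, against 4.56% of all genes) and 1 lower, among the former Csf1 (log2 fold change 0.63), Cxcl10 (2.74) and Plaur (1.57). Microglia markers were called higher in 12 of 14. Glb1 rose (log2 fold change 0.32, edgeR adjusted p = 0.0222) as 1 of 14 structural markers, and Mki67 (0.50) and Mcm3 (0.44) as 2 of 14 proliferation genes. In the BCL2 family Bcl2a1b (1.89), Mcl1 (0.22) and Bcl2 (0.25) rose and Bcl2l2 fell by 0.19 on the log2 scale, out of 13. Of 35 other p53 targets 0 passed in edgeR (5 at an unadjusted p under 0.05, and 4 with an adjusted p under 0.05 in DESeq2), with Pltp (0.32, adjusted p = 0.0516) and Tnfaip8 (-0.38, adjusted p = 0.0661) nearest. Of 20 regulators of p53, 17 CDK inhibitors and RB pathway genes and 15 paralogs 0 passed in edgeR, against 3, 5 and 1 at an unadjusted p under 0.05, and in DESeq2 2 of the RB pathway list passed and 0 of the other lists. The smallest p in these lists were those of Atr (0.17) and Ep300 (0.14), Rbl2 (-0.19) and Rbl1 (0.39), and Cdkn1b (-0.17).

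Over the 14 mice the genes with the profile most like that of Trp53, by the mean absolute difference of centred log2 CPM, were Sulf2 (0.0497), Dnm2 (0.050) and Pgd (0.0511), where the median over all tested genes was 0.160. For Cdkn1a they were Sult1a1 (0.165), Slc24a4 (0.223) and Mertk (0.224), with a median over genes of 0.379. For scale, the mean absolute deviation from the own mean was 0.109 for Trp53 and 0.362 for Cdkn1a. The distances rest on the same 14 libraries and carry no test.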

How the data were processed

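Libraries were made with the TruSeq RNA Library Prep Kit v2 and sequenced with paired ends. The authors ran the MAP-RSeq pipeline, which aligned reads to mm10 with TopHat2 and used featureCounts on Ensembl genes, where a read was counted on each gene that it overlapped. They deposited raw gene counts and RPKM values, of which the RPKM values were used only to order the members, by means over mice and within each mouse. The deposited coding length column was not used. The versions of the aligner and counter are not given in the sources used here.

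The 10 members and all gene lists were chosen with earlier results of these data known. Counts were analysed in R 4.3.3 with edgeR 4.0.16 (TMM factors, quasi-likelihood test, Benjamini-Hochberg adjustment over all tested genes, threshold 0.05), each comparison being fitted on its groups alone. Tested genes exceeded 1 CPM (robust, DESeq2 1.42.0) in every mouse of at least 1 group. Standard errors are those implied by the test statistic. For genes under the filter log2 CPM with a prior count of 2 was compared by exact permutation. The groups compared and the filter were those of the study, with edgeR in place of DESeq2. The threshold also differed, since the study selected genes at an unadjusted p under 0.05. Counts at that unadjusted threshold are given beside the calls. Alternatives were DESeq2, RLE or upper-quartile factors, no filter, at least 10 counts in every mouse, 1 fit of all groups, limma-voom (limma 3.58.1) with quality weights, the ribosomal RNA-like share as covariate, and each mouse left out. The procedure was tested on simulated data. No 2 libraries of a group were identical (26 pairs). Intervals cover counting error or spread between mice only, since PCR copies of a molecule were not told apart.

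Named genes were the 10 members, their paralogs, in each other list up to 4 genes of smallest adjusted p where any passed and otherwise the 2 of smallest p, the 3 genes nearest in profile to Trp53 and Cdkn1a, genes overlapping a member, and Yam1 and AY036118. 1 gene that this rule names is not reported here. Any others were chosen after their values were seen. Lists were other p53 targets, p53 regulators, CDK inhibitors and RB pathway, BCL2 family, paralogs, secretory genes, structural markers, proliferation genes, and markers of neurons, microglia, astrocytes, oligodendrocytes, their precursors, endothelium and mural cells, striatum, thalamus and dentate gyrus. Promoter sequences are from RefSeq (GRCm38.p6).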

Additional observations from a re-analysis of the deposited data

How the results depend on the processing

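The number of members called in APP/PS1 against NTG mice was 1 under all 8 alternatives that kept every mouse, and 0 to 1 when single mice were left out. In APP/PS1 + CP2 against APP/PS1 mice it was 0 throughout. In APP/PS1 + CP2 against NTG mice it was 2 under DESeq2 (Trp53 and Sesn1) and 0 under the other alternatives, and the cause was not tested. Of 468 fold changes of members recomputed, 462 stayed on their side of the threshold with no called value changing sign, 2 gained a call (both under DESeq2) and 4 lost one (Trp53 without NTG mouse 7 or 8 or APP/PS1 mouse 19 or 20). Scaling moved the median of all genes by at most 0.0102 on the log2 scale. No paired analysis was possible because the groups share no replicate numbers. Counts of the lists were also recomputed without mouse 16, an alternative chosen after seeing the data, which gave 17 in place of 12 secretory genes and 14 in place of 13 microglia markers called higher in APP/PS1 mice. Cdkn2a rested on 11 to 55 counts a mouse, and its exact test had only 126 groupings with 4 against 5 mice.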

Other observations

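Markers of other cell types and regions were also compared in edgeR, as values only. In APP/PS1 against NTG mice the astrocyte markers Gfap (log2 fold change 2.30) and Vim (2.02) rose and the glutamate transporter gene Slc1a2 fell by 0.41 on the log2 scale, out of 10 tested. Cldn11 (0.46) rose as 1 of 10 oligodendrocyte markers and Pecam1 (0.40) as 1 of 10 endothelium and mural markers, and the dentate gyrus gene Tdo2 fell by 1.17 on the log2 scale. No neuron, oligodendrocyte precursor, striatum or thalamus marker passed in edgeR in this comparison (1, 1, 1 and 1 at an unadjusted p under 0.05), and 1 thalamus marker passed in DESeq2. All 10 striatum markers had a log2 fold change above 0 (median 1.62) and all 10 thalamus markers one below 0 (median -0.48). Mouse 16, in the APP/PS1 group, had the highest striatum sum and the lowest thalamus sum of all mice.

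In APP/PS1 + CP2 against NTG mice 6 of 10 endothelium and mural markers rose, namely Rgs5 (log2 fold change 0.81), Flt1 (0.33), Pecam1 (0.31), Slco1a4 (0.32), Pdgfrb (0.24) and Tek (0.36). Aqp4 (0.50) rose with Gfap (2.08) and Vim (1.46) among astrocyte markers, Slc1a2 fell by 0.31 on the log2 scale, Cldn11 (0.30) rose, and the dentate gyrus genes Tdo2 and C1ql2 fell by 0.89 and 0.51 on the log2 scale. No neuron, oligodendrocyte precursor, striatum or thalamus marker passed in edgeR (3, 0, 2 and 0 at an unadjusted p under 0.05), and 1 neuron marker passed in DESeq2. In APP/PS1 + CP2 against APP/PS1 mice no marker of these lists passed in edgeR, DESeq2 or limma-voom, although 5 of 10 thalamus markers were higher at an unadjusted p under 0.05 (Lef1 at 0.59 and Rora at 0.43). The untreated group included mouse 16, with a thalamus sum of 215 CPM against 450 to 800 CPM in the other mice. All 10 striatum markers, highest in mouse 16 by their sum, had a log2 fold change below 0 (median -1.42). Of the endothelium and mural markers 0 were below an unadjusted p of 0.05 in this comparison, with a median of 0.09.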
